A study of Mus musculus with 6 samples.

Results

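The 10 genes described here encode the transcription factors and the coactivator best known for turning precursor cells into fat cells: Pparg, Cebpa, Cebpb, Cebpd, Klf15, Ebf1, Ebf2, Zfp423, Prdm16 and Ppargc1a. They were chosen by name, with earlier results of these data known, and every array probe annotated to 1 of these symbols was taken. This gave 19 probes of 45281 on the array. In the RefSeq gene table (GRCm38.p6), Pparg and Klf15 lie on chromosome 6, Cebpa on 7, Cebpb on 2, Cebpd on 16, Ebf1 on 11, Ebf2 on 14, Zfp423 on 8, Prdm16 on 4 and Ppargc1a on 5. The RNA came from embryonic fibroblasts of mice, primary cells grown from embryos, with a mixed 129SV and C57BL/6 background. There were 3 arrays of Lpar6-/- cells (knockout, arrays D to F) and 3 of Lpar6+/+ cells (wild type, arrays A to C). Lpar6 encodes a receptor for the signalling lipid lysophosphatidic acid. The series title speaks of a knock-down, and the genotype labels, which name a knockout, were followed. The labels name no hormone treatment that would start fat cell formation, no embryo age and no passage. The sources used here do not say how the Lpar6 allele was made.

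In fat cell formation, C/EBPβ and C/EBPδ (genes Cebpb and Cebpd) are induced early and switch on Pparg and Cebpa. PPARγ, a nuclear receptor that binds fatty acids, and C/EBPα then keep each other active and turn on the genes of lipid storage. EBF1, EBF2 and the zinc finger protein ZFP423 act earlier and commit precursors to the fat lineage. KLF15 acts late. PRDM16 directs cells to the brown fat programme, and PGC-1α (gene Ppargc1a) is the coactivator that drives mitochondrial and heat-producing genes in brown fat and muscle.

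The C/EBP genes, Pparg and Prdm16 were higher in the knockout, and Ppargc1a and Ebf2 were lower. Of the 10 genes, 9 had a probe detected often enough to be tested, and 7 of these passed (limma, Benjamini-Hochberg adjusted p below 0.05), 5 higher and 2 lower. Over all 11040 genes tested, 39.7% passed, 20.6% higher and 19.1% lower. The 10 genes were chosen with earlier results of these data known, so comparisons with all genes are a description. All 9 were detected on all 6 arrays by their brightest probe, so the detection filter fixed the direction of none of them. Among all genes with such a probe 39.5% passed. The median size of the change was 0.63 on the log2 scale over the 9 genes and 0.24 over all genes, whose median signed change was 0.027. Changes here are knockout minus wild type on a background-corrected log2 scale, ± SE, with n = 3 arrays in each group. On that scale the 3 knockout values lay on 1 side of the 3 wild-type values for the brightest probe of 8 of the 9 genes, against 52.8% of all genes. The exception was Zfp423. In the intensities as deposited the groups were also apart for 8 of 9, the exception being Prdm16, against 50.7% of all genes. Counted over probes, 7 of the 13 kept probes of the 10 genes passed, against 37.9% of all kept probes. When the arrays were instead scaled to 1 median, the median of all genes was -0.082, a shift relative to which changes should be read. Of all genes called, the split was then 1393 higher and 2713 lower, against 2273 higher and 2106 lower. Under median scaling Cebpd did not pass and Ebf1 did.

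**Figure D1:**
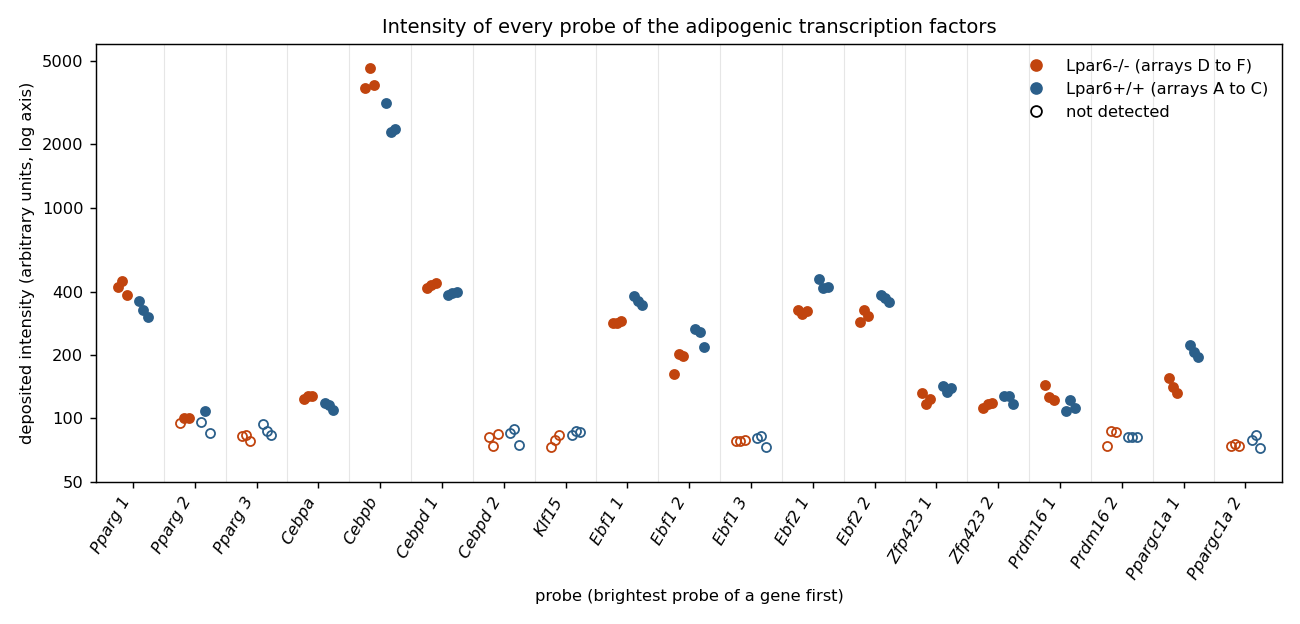
Deposited intensity (log axis) of all 19 probes of the 10 genes on each array, knockout left of wild type at each probe, with open circles where the detection p was 0.05 or more. The 3 knockout points of Cebpb lie above its wild-type points, while 6 probes, among them the only Klf15 probe, are open on all arrays.

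Lpar6 itself was read first, as a check of the labels. The only Lpar6 probe had intensities of 76.7, 77.9 and 76.0 on the knockout arrays, where it was not detected, against 1373, 1223.5 and 1278 on the wild-type arrays (limma, adjusted p = 1.51e-09). The number of probes detected was 19006 to 19249 on the knockout arrays and 19646 to 20137 on the wild-type arrays. Array-to-array correlations over the kept probes were 0.993 to 0.994 within the knockout, 0.995 within the wild type and 0.966 to 0.968 across genotypes, so no array stood apart from its group. Of 17 fibroblast markers with a probe, 16 were kept. All 16 were detected on all 6 arrays, so both genotypes carried the labelled cell type's markers. Their levels differed, with 12 higher in the knockout and none lower, a share of 75% against 39.7% of all genes. The summed normalized levels were 100980 to 105510 in the knockout and 64652 to 69536 in the wild type. Such sums, here and below, are weighted to the brightest genes of a list. The labels do not say that the arrays of a genotype came from separate embryos or cultures, so p-values measure only how these arrays vary, and that variation may be technical. An exact test of 1 gene, 3 arrays against 3, cannot give a p below 0.1.

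Pparg, the nuclear receptor at the centre of the programme, rose. Its brightest probe had intensities of 423, 450 and 386 on the knockout arrays, against 360, 328 and 302 on the wild-type arrays. Every knockout value lay above every wild-type value. The change was 0.63 ± 0.095 (adjusted p = 0.000745), a 1.55-fold higher level, with a 95% interval of 0.42 to 0.85. Of the other 2 Pparg probes, 1 was detected on 2 knockout arrays and 1 wild-type array and changed by 0.29 ± 0.15 without passing (adjusted p = 0.167). The other had intensities of 78.5 to 83.1 on the knockout arrays and 83.7 to 93.7 on the wild-type arrays and was detected on none. The statement on Pparg therefore rests on 1 probe.

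Pparg is transcribed from several start sites, and the one furthest downstream, whose product is the isoform PPARγ2, is used mainly in fat cells. The promoter windows of its 3 annotated starts are shown because C/EBP proteins are known to act at this gene. Each runs from 250 bases before to 50 bases after a start, on the plus strand of chromosome 6 (RefSeq, GRCm38.p6), in the order chr6:115360894-115361193, chr6:115362099-115362398 and chr6:115421816-115422115. Capitals mark the letters TTGCNNAA, the core that C/EBP proteins bind, read on both strands.
Pparg start 1: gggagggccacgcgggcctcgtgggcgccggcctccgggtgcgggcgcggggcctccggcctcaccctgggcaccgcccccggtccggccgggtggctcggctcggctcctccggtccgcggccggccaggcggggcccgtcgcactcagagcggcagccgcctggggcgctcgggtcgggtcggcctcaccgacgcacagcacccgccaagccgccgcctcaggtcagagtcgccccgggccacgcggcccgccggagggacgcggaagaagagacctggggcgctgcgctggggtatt
Pparg start 2: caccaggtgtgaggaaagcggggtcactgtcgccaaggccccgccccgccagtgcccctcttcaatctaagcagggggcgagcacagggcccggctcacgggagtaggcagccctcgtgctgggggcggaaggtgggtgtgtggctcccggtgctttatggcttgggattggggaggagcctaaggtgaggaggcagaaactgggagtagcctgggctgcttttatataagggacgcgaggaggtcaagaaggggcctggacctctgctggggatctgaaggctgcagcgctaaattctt
Pparg start 3: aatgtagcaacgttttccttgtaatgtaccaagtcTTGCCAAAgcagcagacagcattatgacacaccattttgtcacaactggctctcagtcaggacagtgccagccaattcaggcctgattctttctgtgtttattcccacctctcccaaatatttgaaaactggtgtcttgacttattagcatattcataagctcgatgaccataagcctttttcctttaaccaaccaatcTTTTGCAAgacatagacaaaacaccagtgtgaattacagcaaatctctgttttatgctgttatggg

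The third window held 2 matches, 215 and 16 bases before the start, which do not overlap each other, and the other windows held none. A match stood in 10.8% of the 32851 promoter windows of the same length in the RefSeq table, and 2 or more in 0.773%. The only other window of the 10 genes with a match was 1 of the 2 windows of Zfp423, which also held 2. The table had windows for 8 of the 10 genes, 12 in all, and none for Cebpd and Ebf2. The EBF palindrome, TCCC and GGGA with any 2 bases between them, was in 0 of the 12 windows on either strand and in 0.904% of all windows. The shares over all windows are per window, while 12 windows of the 10 genes were read. Such a match is a description of the letters, and the part of C/EBP proteins in the Pparg values was not tested. The array does not tell which Pparg start was used, since the sources used here give no position of the probes in the transcripts.

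Cebpb, the early C/EBP factor, rose on a bright probe. Intensities were 3698, 4596 and 3820 on the knockout arrays, against 3157, 2284 and 2356 on the wild-type arrays. The groups did not overlap, and wild-type array A was the nearest to the knockout values. The change was 0.69 ± 0.11 (adjusted p = 0.00132), with a 95% interval of 0.43 to 0.95. As the probe lies far above background, this value moved little with the processing and lay between 0.61 and 0.79 over 17 alternatives, in all of which it passed.

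Cebpd, its early partner, rose less and less firmly. Its brighter probe had 416, 430 and 442 on the knockout arrays, against 385, 393 and 400 on the wild-type arrays, and the groups did not overlap. The change was 0.36 ± 0.10 (adjusted p = 0.0194). The call was lost without wild-type array A (adjusted p = 0.0714), without knockout array F (0.0583) and under median scaling, where the change was 0.22 (0.132); over 17 alternatives the lowest adjusted p was 0.00227. The other Cebpd probe was not detected on any array.

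Cebpa, which sustains Pparg in fat cells, was dim and rose. Its only probe had 124, 129 and 128 on the knockout arrays, against 119, 116 and 109 on the wild-type arrays. It was detected on all 6 arrays, and the lowest intensity counted as detected was 94.2 to 98.8 on the knockout arrays and 96.6 to 103.9 on the wild-type arrays. The groups did not overlap, and the change was 0.65 ± 0.090 (adjusted p = 0.000471). Its size depended on the background correction. It was 0.28 with the authors' deposited log2 values and 0.20 for quantile-normalized log2(intensity + 50) without background correction, and Cebpa passed in both and in all 17 alternatives.

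Of the other C/EBP genes, Cebpg was higher and Cebpe was not detected. They and the relatives of the other factors below were named after their values had been seen, except Ppargc1b. Cebpg, which encodes a partner that lacks a full activation domain, had 1476, 1611 and 1650 on the knockout arrays, against 1159, 1111 and 1073 on the wild-type arrays. Its change was 0.65 ± 0.087 (adjusted p = 0.000379), while a dimmer Cebpg probe changed by 0.27 and did not pass. Cebpe, a factor of granulocyte maturation, was not detected by any of its 4 probes.

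Klf15, a late factor of fat cells that is also active in muscle, was not detected. Its only probe had 73.5, 79.4 and 83.6 on the knockout arrays and 83.7, 87.3 and 86.0 on the wild-type arrays, with detection p of 0.329 to 0.954 in the knockout and 0.290 to 0.657 in the wild type. No level or change of Klf15 can be given from these arrays. The 6 probes of the 10 genes that were left out had intensities of 72.1 to 93.7 in all.

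**Figure D2:**
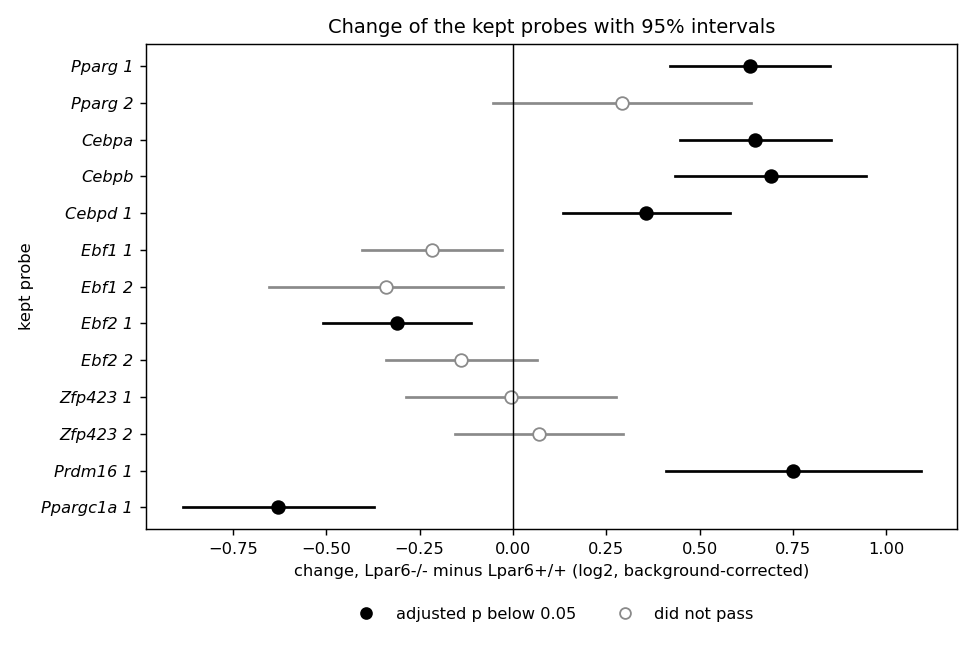
Change of the 13 kept probes, knockout minus wild type, on the background-corrected log2 scale, with 95% intervals from limma (n = 3 arrays in each group) and filled points where the adjusted p was below 0.05. The called probes of Pparg, the C/EBP genes and Prdm16 lie to the right of 0 and those of Ebf2 and Ppargc1a to the left.

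The EBF genes, which mark and commit fat precursors, had lower values in the knockout. The brighter Ebf2 probe had 329, 315 and 325 on the knockout arrays, against 462, 418 and 423 on the wild-type arrays, a change of -0.31 ± 0.088 (adjusted p = 0.0202). The second Ebf2 probe had 286, 326 and 307 on the knockout arrays, against 387, 373 and 359 on the wild-type arrays. Its change was -0.14 ± 0.090 and did not pass (adjusted p = 0.259). Both probes had knockout values below every wild-type value. The call on the brighter probe was lost without wild-type array A (adjusted p = 0.0517), wild-type array C (0.0639) or knockout array E (0.0677), with a lowest adjusted p of 0.0035 over 17 alternatives. Ebf2 lies on chromosome 14, as Lpar6 does, where 182 of 381 tested genes passed (47.8%, against 39.7% of all genes), 93 higher and 89 lower. The part of this position in the Ebf2 values was not tested.

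Ebf1 did not pass by either kept probe. The brighter had 284, 286 and 289 on the knockout arrays, against 382, 362 and 347 on the wild-type arrays, and changed by -0.22 ± 0.084 (adjusted p = 0.0684). The second had 162, 203 and 197 on the knockout arrays, against 265, 256 and 219 on the wild-type arrays, and changed by -0.34 ± 0.14 (adjusted p = 0.083). The groups did not overlap in either probe. Ebf1 lay close to the threshold and passed in 6 of 17 alternatives, with adjusted p from 0.0141 to 0.165. Its value was -0.17 with the authors' log2 values (adjusted p = 0.0453), -0.28 with the mean of its kept probes (0.0326) and -0.37 under median scaling (0.0141).

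Their relative Ebf3 changed far more. Its brighter probe had 1040, 992 and 1143 on the knockout arrays, against 4236, 3523 and 3685 on the wild-type arrays, and fell by 1.86 ± 0.099 on the log2 scale (adjusted p = 1.15e-06). A second Ebf3 probe fell by 1.64 ± 0.12. Ebf3 is known from neuronal precursors as well as from mesenchyme. On the same arrays all 10 kept neuronal markers were lower, against 19.1% of all genes, with a median change of -2.95. Summed normalized levels of the neuronal markers were 1113 to 1172 in the knockout and 7951 to 8077 in the wild type. The part of such cells in the values of the EBF genes was not tested.

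Zfp423, the zinc finger factor of fat precursors, showed no change that passed. Its brighter probe had 132, 117 and 124 on the knockout arrays, against 142, 134 and 140 on the wild-type arrays. The second had 112, 117 and 118 on the knockout arrays, against 128, 127 and 118 on the wild-type arrays. The median intensity of all probes was 88.3 to 92.6 on the knockout arrays and 90.7 to 98.3 on the wild-type arrays. After normalization the groups overlapped in both probes. The changes were -0.0058 ± 0.13 (adjusted p = 0.976) and 0.069 ± 0.10 (0.625). The 95% interval of the brighter probe, -0.29 to 0.28, allows a change of that size in either direction. Its relative Zfp521, a repressor of fat cell formation, changed by -0.10 ± 0.11 and did not pass (adjusted p = 0.501).

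The brown fat regulators moved in opposite directions. Prdm16 had 144, 126 and 122 on the knockout arrays, against 108, 122 and 112 on the wild-type arrays. Knockout array F and wild-type array B overlapped in intensity, and after normalization all 3 knockout values were higher. The change was 0.75 ± 0.15 (adjusted p = 0.00393), with a wide 95% interval of 0.41 to 1.09. As with Cebpa, the probe is dim and the size depended on background correction, being 0.33 with the authors' log2 values and 0.23 without correction. A second Prdm16 probe was not detected on any array. The related Mecom did not pass by its brightest probe (0.0043 ± 0.096, adjusted p = 0.977) or by a second kept probe (-0.33 ± 0.14, adjusted p = 0.0921).

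Ppargc1a, the gene of the coactivator PGC-1α, had 156, 141 and 133 on the knockout arrays, against 223, 208 and 196 on the wild-type arrays, with no overlap. The change was -0.63 ± 0.11 (adjusted p = 0.00215), with a 95% interval of -0.88 to -0.37. It was -0.37 with the authors' log2 values and -0.29 without background correction, and it passed in all 17 alternatives. The second Ppargc1a probe was not detected. Its closest relative Ppargc1b, a coactivator of overlapping function, had 258, 301 and 292 on the knockout arrays, against 226, 233 and 223 on the wild-type arrays, and rose by 0.67 ± 0.10 (adjusted p = 0.000883). The third coactivator of the family, Pprc1, changed by 0.11 ± 0.10 and did not pass (adjusted p = 0.45).

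**Figure D3:**
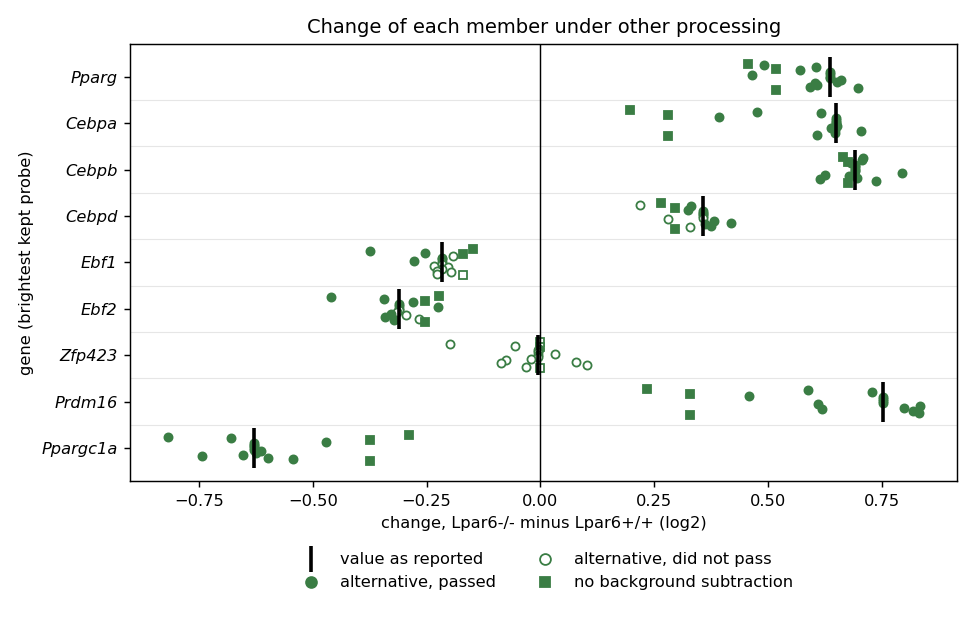
Change of the 9 tested genes (log2, brightest kept probe) under 17 other processing settings (16 for Prdm16), with filled symbols where the gene passed and squares for the settings without background subtraction (3 a gene). Pparg, Cebpa, Cebpb, Prdm16 and Ppargc1a are filled throughout, Cebpd, Ebf1 and Ebf2 are mixed, and the squares of the dim probes of Cebpa, Prdm16 and Ppargc1a lie nearer to 0.

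Of 13 kept genes for partners and coregulators, 2 were higher and 3 lower, a called share of 38.5% against 39.7% of all genes, with a median change of -0.069. A share so near that of all genes is no result about the list, and its genes are given one by one. Rxra, which encodes the receptor that binds DNA together with PPARγ, was higher (0.66 ± 0.15), but was detected on only 1 wild-type array, so the size is uncertain. Lpin1, a phosphatidate phosphatase that also acts as a coactivator, was lower (-0.76 ± 0.084), as were the acetyltransferase gene Ep300 (-0.55 ± 0.12, with a second probe at -0.22 that did not pass) and Crebbp (-0.38). The related receptor gene Ppard, on a probe of 1308, 1492 and 1382 on the knockout arrays and 1625, 1509 and 1288 on the wild-type arrays, had a change of 0.032 and did not pass (adjusted p = 0.816), and Ppara was not detected.

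Of 14 kept genes for other pro-adipogenic factors, 7 were higher and 3 lower, a share of 71.4% against 39.7% of all genes, with a median of 0.24. Higher were the lipid-sensing receptor gene Nr1h3 (0.63 ± 0.11), the circadian factor gene Arntl (0.63 ± 0.14) and Stat5a (0.57 ± 0.12), which acts downstream of growth hormone. Egr2 (0.57), Klf9 (0.51), Xbp1 (0.51) and Srebf1 (0.29) were also higher. The early zinc finger factor gene Klf4 was lower (-0.61 ± 0.091), as were Klf5 (-0.49) and Klf6 (-0.43). Dimmer Klf4 probes changed less (-0.39 and -0.38) and also passed. Of 21 kept inhibitors of fat cell formation, 6 were higher and 8 lower, a share of 66.7% against 39.7% of all genes, with a median of -0.17. The pseudokinase gene Trib3 (2.31 ± 0.11) and the stress factor gene Ddit3 (0.79 ± 0.10), whose product forms dimers with C/EBP proteins, were higher. Gata3 (-1.39 ± 0.12), whose product represses Pparg, and the cartilage factor gene Sox9 (-0.88 ± 0.087) were lower. A dimmer Sox9 probe changed less (-0.38) and also passed. On the same arrays 8 of 9 kept cartilage markers were lower and 1 higher, against 19.1% and 20.6% of all genes. Their summed normalized levels were 3000.1 to 3045 in the knockout and 15363 to 15873 in the wild type. A large part of these sums came from Col2a1, with mean log2 levels of 10.7 in the knockout and 13.5 in the wild type. The part of cartilage cells in the value of Sox9 was not tested.

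Genes that PPARγ is known to activate were mostly higher, but not all of its best-known targets were detected. Of 22 kept genes, 15 were higher and 1, Slc27a1 (-0.38), was lower, a share of 72.7% against 39.7% of all genes, with a median of 0.86. Of the 22, 8 were detected in the knockout alone, which fixes their direction. In a refit of the probes with a detection p below 0.01 on all 6 arrays, 8 of 13 were higher and 1 lower, with a median of 0.43. Of all 8843 genes in that refit, 4074 passed, 2266 higher and 1808 lower. For genes not detected in 1 genotype, the fold is a bound against the lowest level counted as detected. By that bound the adiponectin gene Adipoq was at least 53.98-fold higher, the lipid droplet genes Cidea and Cidec at least 10.8-fold and 2.54-fold, and Adig, a membrane protein gene of fat cells, at least 2.78-fold. Among targets detected on all arrays, the lipoprotein lipase gene Lpl was higher by 1.40 and the desaturase gene Scd1 by 0.999. Fabp4, the fatty acid binding protein of fat cells and a classical target, had 79.2, 86.1 and 81.4 on the knockout arrays and 85.1, 85.3 and 76.6 on the wild-type arrays. No array detected it, and none detected Cd36 or Retn. Each of these genes is read by only 1 probe, so no level or change of them can be given from these arrays.

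The brown and beige fat list held both directions, 9 higher and 6 lower of 17 kept, a share of 88.2% against 39.7% of all genes. Of the 17, 2 were detected in 1 genotype alone. The heart and muscle type respiratory subunit genes Cox7a1 (2.64 ± 0.13) and Cox8b (2.62 ± 0.12) and the hormone gene Fgf21 (1.80 ± 0.12) were higher. The mitochondrial regulators Nrf1 (-0.40) and Esrra (-0.37) were lower, while Tfam, which encodes the mitochondrial transcription factor, changed by 0.076 and did not pass (adjusted p = 0.572). Zic1, also a factor of neural tissue, was lower (-1.78). Ucp1, which encodes the protein that makes heat in brown fat, was not detected by its only probe. That probe had 87.2, 79.3 and 84.6 on the knockout arrays and 82.0, 85.8 and 73.0 on the wild-type arrays. Of 15 kept genes of fat cell progenitors, 4 were higher and 2 lower, a share of 40% against 39.7% of all genes, with a median of 0.027, the same as over all genes. Bmp4, a signal that commits precursors, was lower (-1.16 ± 0.087) and so was Icam1 (-0.71 ± 0.097), while Dpp4 (0.74 ± 0.13) and the growth factor receptor gene Pdgfra (0.67 ± 0.11) were higher. These lists are described by their counts and medians and were not tested as lists.

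**Figure D4:**
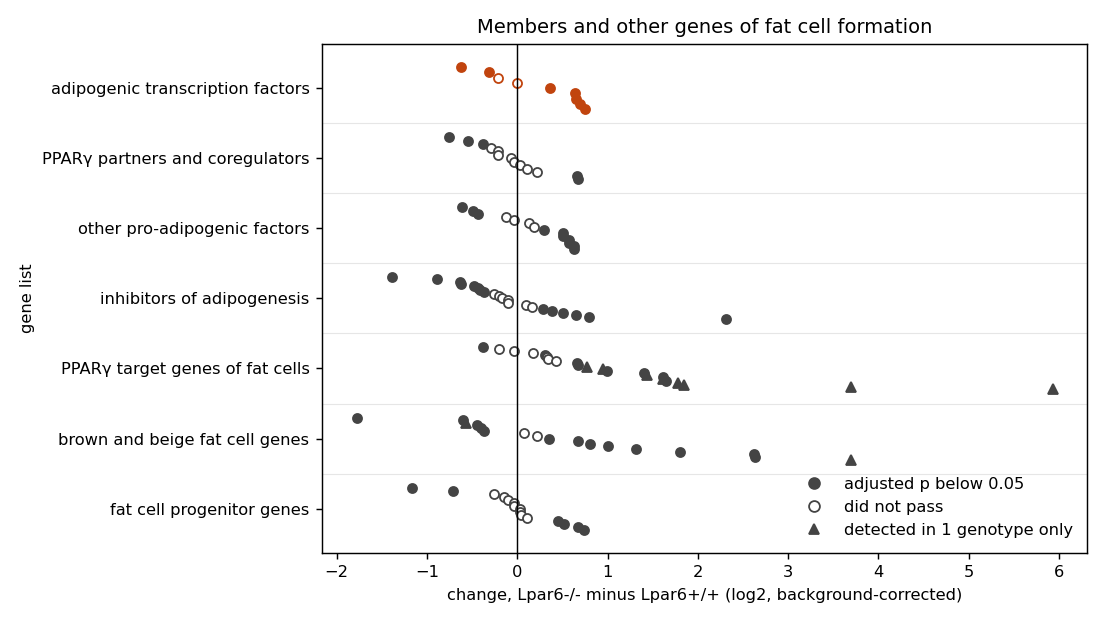
Change of every kept gene, knockout minus wild type (background-corrected log2), in the 10-gene list (top) and 6 further lists on fat cell formation, with filled symbols where the adjusted p was below 0.05 and triangles for genes detected in 1 genotype only. The PPARγ targets reach furthest to the right, and the 9 tested genes of the top list lie between -0.63 and 0.75.

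Several members are expressed in more than 1 cell type, and markers of other cells moved on the same arrays. Mature fat cell markers were higher in 7 of 8 kept genes, a share of 87.5% against 39.7% of all genes. Of the 8, 4 were detected in the knockout alone, which fixes their direction, and 2 on all 6 arrays. Genes such as Adipoq, Fabp4 and Retn are also in the list of PPARγ targets, so these lists are not separate observations. The summed normalized level of the 10 mature fat cell markers with a probe was 2933 to 3289 in the knockout and 196.5 to 222.6 in the wild type. Bright genes lead the knockout sum. The mean log2 level there was 10.7 for Adipoq and 9.65 for Car3, against 6.25 for Cidec. Skeletal muscle markers were higher in 11 of 12, a share of 91.7% against 39.7% of all genes, with 1 of the 12 detected in 1 genotype alone. Their sums were 25296 to 25881 in the knockout and 16562 to 16917 in the wild type. Of 10 kept macrophage markers, whose cells also express C/EBP genes, 2 were higher and 2 lower, a share of 40% against 39.7% of all genes, with sums of 4453 to 4775 in the knockout and 5036 to 5866 in the wild type. Of the B cell markers, whose cells depend on Ebf1, 2 were kept. Igll1 was higher (0.59 ± 0.10, adjusted p = 0.00172) but was detected in the knockout alone, Vpreb1 did not pass, and Cd79b, Pax5, Ms4a1 and Blk were not kept. The sums were 62.1 to 96.6 in the knockout and 70.7 to 83.6 in the wild type. Of 6 kept hepatocyte markers, whose cells express Cebpa, 3 were lower and none higher, a share of 50% against 39.7% of all genes, and Alb was not kept. Of the 6, 1 (Afp, among the lower) was detected in the wild type alone, which fixes its direction, and 2 on all 6 arrays. In RNA of mixed cells, more cells of a type and more RNA of a gene per cell cannot be told apart. The part of these cells in the changes of the 10 genes was not tested.

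The genes whose profile over the 6 arrays was most like that of Pparg were Alad, Cd93 and Rrm1, with Pearson correlations of 0.998, 0.998 and 0.997. For Cebpa they were Pdia6, Fnbp1 and H2ac7, each with a correlation of 0.999. The 6 arrays hold both genotypes, and 13.6% of the other tested genes had a correlation of 0.9 or more with Pparg and 14.5% with Cebpa.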

How the data were processed

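RNA was extracted with Trizol and hybridised to Illumina bead arrays of 1 slide, per the labels. The authors deposited each probe's non-normalized intensity and its detection p-value. They also deposited log2 values, and limma is among the tools in the submitters' processing notes. These log2 values matched quantile-normalized log2 intensities without background correction within 0.0039 in each group's mean and were not centred (column medians of 6.54). The scanner software's background step was not stated. Intensity columns carry a letter and no replicate number.

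Background was corrected with normexp, with negative controls inferred from the detection p-values, followed by an offset of 16, quantile normalization and log2 (neqc, limma 3.58.1, R 4.3.3). The offset understates changes of dim probes. Probes with a detection p below 0.05 on at least 3 of 6 arrays were kept (19802 of 45281, 43.7%). Names came from GEO's platform annotation (34885 probes with 1 symbol, 18 with several, 10378 with none), of which 34807 matched a RefSeq gene table (GRCm38.p6) by Entrez ID. A gene was represented by its brightest kept probe. All 6 arrays entered lmFit and eBayes of limma, and p-values were adjusted by Benjamini-Hochberg across every probe kept. The steps were tested on simulated data. For a fold bound, each array of the dimmer genotype gave its lowest detected level, or the probe's own level where higher, and their mean was set against the other genotype's mean. Genes set for naming beyond the 10 were, for each list, up to 4 called genes with the largest change, and 3 genes each most correlated with Pparg and Cebpa. Not all marker genes so chosen are named. Crebbp, Egr2, Klf9, Xbp1, Srebf1, Klf5, Klf6, Slc27a1, Lpl, Scd1, Zic1, Nrf1, Esrra, Tfam, Vpreb1 and the genes stated as not detected or not kept were named after their values were seen. The 10 genes and the lists were chosen with earlier results of these data known. Same-numbered samples did not deviate together (correlations of -0.048, 0.020 and -0.054 in the authors' values), so samples were not paired.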

Additional observations from a re-analysis of the deposited data

How the results depend on the processing

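The number of the 10 genes called was 7, and 5 to 8 over all alternatives, with 5 to 7 when each array was left out in turn. Pparg, Cebpa, Cebpb, Prdm16 and Ppargc1a kept their direction and passed in every alternative that tested them. Cebpd and Ebf2 each lost their call in 4 of 17, including the adjusted p threshold of 0.01, and Ebf1 gained one in 6. Zfp423 changed sign, without passing, with the mean of its probes (0.031), without wild-type array C (0.078), without knockout array E (0.10), with a range of -0.088 to 0.10 over the arrays left out in turn. A detection p below 0.01 on all 6 arrays tests fewer genes and leaves out Lpar6 and Prdm16's brightest probe. With it, 9 PPARγ targets passed in place of 16, and 9 brown and beige fat genes in place of 15. These were 9 of 13 and 9 of 12 genes tested there, against 4074 of 8843 genes in all. At the threshold of 0.01, 2876 genes passed in place of 4379. The replicate block, possible only on the authors' values, gave 7 of the 10 genes against 8 without it, Ebf1 being the difference, and 4906 genes in all. Repeats were also run for the up to 4 called genes of largest change in each further list, not all of which are named above. Of these 801 repeats, 789 kept direction and side of the threshold. The other 12 lost the call, for the macrophage markers C1qa, Lyz2 and Fcgr1. Genes outside that choice, such as Lpl, Zic1 and Klf5, were not repeated. Probes near background, as for Cebpa, Prdm16 and Zfp423, limit what can be said of size. The slide could not be tested as a batch, since there was 1.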
